A study of Mus musculus with 12 samples.

Results

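Whole jejunum, the middle stretch of the small intestine, was compared between day 12 and day 9 in mice labelled as knockouts of Cep43, a centrosomal gene formerly called Fgfr1op. The comparison holds 4 of the 12 expression arrays in the study: 2 knockout (KO) mice at day 12 against 2 KO mice at day 9. The arrays were chosen by genotype and day alone. The full set has wild-type (WT) and KO mice at 6, 9 and 12 days on a scale labelled post-tamoxifen, with 2 mice in each of 6 groups. WT mice at the same days (2 at day 9, 2 at day 12) gave the background change over time. For gene ablation, tamoxifen in corn oil (20 mg/mL) was injected into the abdomen at 75 mg/kg on 5 successive days. The sources used here do not give the recombinase or its driver, the deleted part of the gene, whether WT mice were injected, or the strain, age, sex and litter of the mice. Nothing in the labels says how the 2 mice of a group relate, so p-values measure the spread between these mice only. The RNA was that of the intact wall, with epithelium, muscle, stroma, vessels and immune cells together. Fewer cells of a type and less RNA per cell cannot be told apart in such samples.

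Cep43 protein sits at centrioles, the paired barrels at the core of the centrosome, where it helps anchor microtubules. The jejunal epithelium is renewed without pause: stem cells at the crypt base divide, their daughters proliferate and then move up the villus as absorptive enterocytes or as goblet, Paneth, tuft and enteroendocrine cells. Enterocytes carry a brush border of digestive enzymes and transporters, and epithelial oxidases, lectins and cytokines face the gut microbes. The comparison asks which of these programmes differed between a middle and a late day after tamoxifen.

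The targeted gene came first. Cep43 had log2 signals of 6.60 and 6.63 in KO at day 9 and of 6.97 and 6.74 at day 12. The 6 WT arrays lay between 6.83 and 7.05. Both day 9 KO arrays were therefore below every WT array, whereas 1 of the 2 day 12 KO arrays lay inside the WT range. The day 12 minus day 9 change was 0.24 (standard error, SE, 0.11; limma adjusted p = 0.14) and did not pass the test. In WT the change was -0.07. Without the KO day 9 or KO day 12 arrays in turn it was between 0.12 and 0.35. With the deleted part of the gene not given, these values do not show how far Cep43 RNA was lost at day 12.

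Day and sex coincided in these arrays. Xist, the RNA that silences an X chromosome in females, had log2 signals of 4.03 and 4.34 in KO at day 9 and of 10.05 and 10.08 at day 12. Eif2s3y, a Y-linked translation factor gene, had 8.54 and 8.14 at day 9 and 4.01 and 3.99 at day 12. The day 9 KO arrays thus read as male and the day 12 KO arrays as female, and the WT arrays of the same days did the same. Xist changed by 5.89 in KO (SE 1.18, limma adjusted p = 0.00569) and by 5.78 in WT, and Eif2s3y by -4.34 (SE 0.87, adjusted p = 0.00579) and by -4.75. Within KO, day and sex cannot be told apart. The WT change carries the same switch of sex, so the test of the difference between the KO and WT changes was run for every gene. Of 155 genes followed closely, 146 were called in KO, and for 108 of these the KO change also passed as different from the WT change. Over all genes, that held for only 1140 of the 4573 called in KO. The 155 were picked in part for large changes or for a small p of that difference. Among the 38 of the 146 that did not pass as different, besides the sex-linked genes, were Duox2, Duoxa2, Tifa, Cxcl9, Gzma, Oasl2, Psmb8, Psmb9, Slc10a2, Fn1, Postn, Lox and Nqo1. Smooth muscle contractile genes also moved with day: their mean log2 signal over 19 genes was 8.89 and 7.90 in KO at day 9, 9.44 and 8.92 at day 12, and between 7.85 and 8.74 in WT at those days. Their part in the other results was not tested beyond refitting with that mean as a covariate. Epithelial markers were present in all 4 KO arrays but lower on average at day 12. Of the 15 genes used to check the tissue, 4 fell (Fabp1, Fabp2, Krt8 and Slc10a2) and 1 rose (Alpi). That is 26.7% and 6.67%, against 8.81% and 14.1% of all genes. Of the 15, 12 had a change below 0, with a median of -0.31 in KO and -0.02 in WT. The mean of the 15 was 10.81 and 10.69 in KO at day 9, 10.27 and 10.38 at day 12, and 10.85 to 11.03 in WT at these days. Vil1, the microvillus protein villin, had 11.78 and 11.97 in KO at day 9 and 11.57 and 11.71 at day 12, and the gut transcription factor Cdx2 had 10.13 and 10.23, then 9.94 and 9.87. Neither change passed the test. The bile acid transporter Slc10a2, which marks the ileum, was at 10.57 and 10.45, then 9.22 and 9.33 in KO, against 5.79 to 6.82 in WT at those days.

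**Figure D1:**
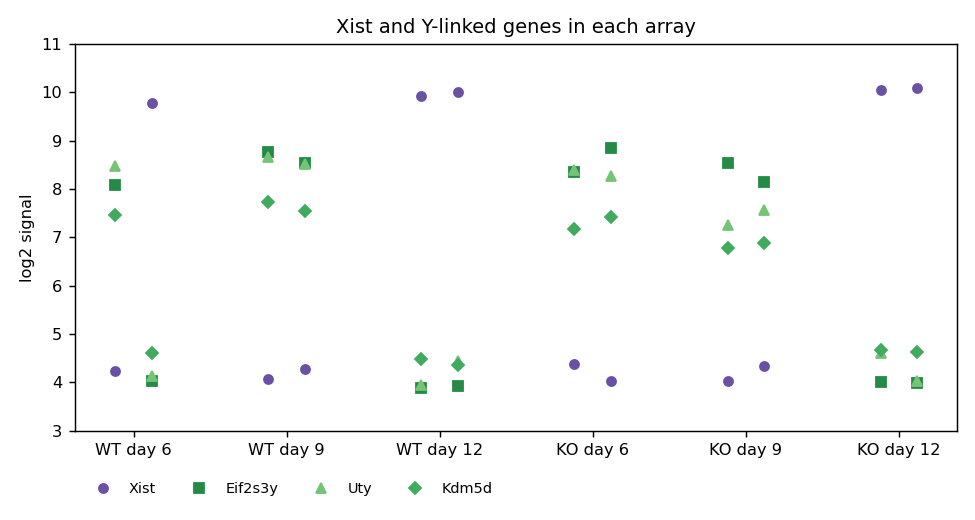
Log2 signal of Xist and of the Y-linked genes Eif2s3y, Uty and Kdm5d in each of the 12 arrays, 2 points per gene and group. Xist is near 10 and the Y-linked genes are low in both genotypes at day 12, and the reverse holds in both genotypes at day 9.

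From day 9 to day 12 the KO jejunum changed in 4573 of 19938 genes (22.9%; limma, adjusted p under 0.05). Of these, 2816 rose (14.1% of all genes) and 1757 fell (8.81%). These are the shares to set beside the count of called members in each list below. At least 2-fold changes were seen for 327 genes that rose and 117 that fell, and at least 4-fold changes for 35 and 21. The 2 day 12 arrays lay apart from the 2 day 9 arrays for 4572 of the 4573 genes; over all genes, 27.4% were higher and 31.3% lower without overlap. In WT over the same days no gene passed (0%, smallest adjusted p = 0.0972 by limma). There 1783 genes had an unadjusted p under 0.05, against 7341 in KO. That count of 0 does not show an unchanged WT jejunum. Xist and Eif2s3y changed by 5.78 and -4.75 in WT with the switch of sex and did not pass there either. The KO change differed from the WT change in 1212 genes (6.08%), more positive in 810 (4.06%) and more negative in 402 (2.02%), and 1140 of the 1212 were also called in KO with the same sign. The standard deviation of the change over all genes was 0.39 in KO and 0.19 in WT, and the medians were -0.03 and -0.02. The split between rises and falls depended on scaling: 61.6% of the calls were rises with the values as deposited, 74.2% after centring each array on its median and 55.7% after quantile normalisation. Single arrays mattered for the number of calls, which was 2028 without KO day 12 replicate 2, 2051 without KO day 9 replicate 1, and 5529 without KO day 12 replicate 1. With sex as a covariate, a choice made after the data were seen, 807 genes were called in KO, of which 724 were among the 4573, and 1052 in the difference between genotypes. Sex differed within a group only in WT at day 6 (1 male, 1 female), so this covariate rests on those 2 arrays, and the median SE of the KO change went from 0.11 to 0.20. Counts with the sex covariate are therefore given with the change beside them. Over all genes, 2.75% rose and 1.3% fell with this covariate. A list given without such a count is not thereby shown to hold with it.

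**Figure D2:**
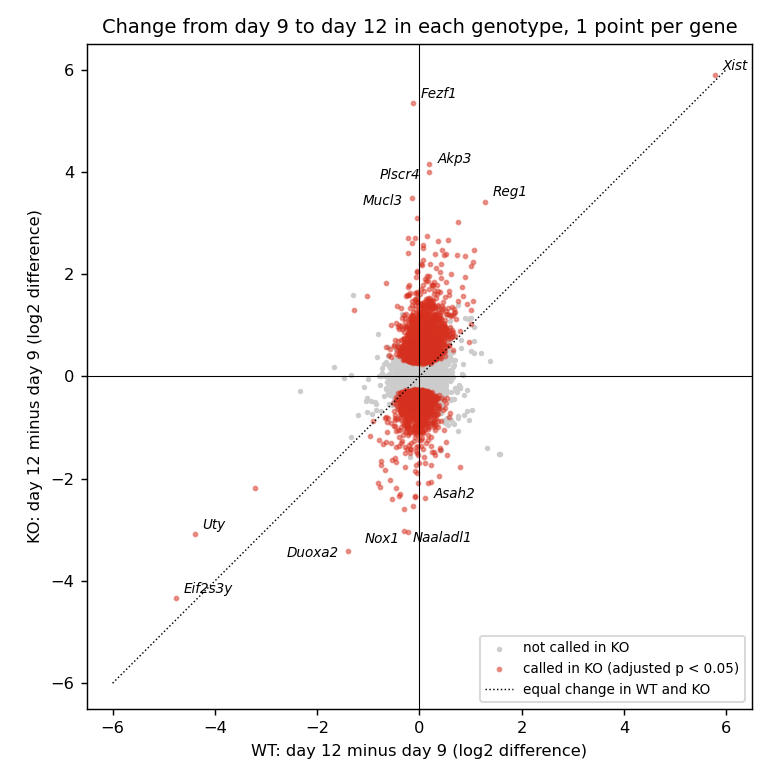
Change from day 9 to day 12 in WT (x axis) and in KO (y axis), in log2 units, 1 point per gene, with genes called in KO in red and a dotted line of equal change. Fezf1 (5.35), Akp3 (4.14) and Plscr4 (4.01) lie high in KO near 0 in WT, while Xist and the Y-linked genes lie along the line.

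Dividing-cell genes fell. Of 30 measured genes of mitosis and cytokinesis, 27 fell and none rose, against 8.81% of all genes that fell; the list's median change was -0.75 in KO and 0.00 in WT. Top2a, the topoisomerase that untangles chromosomes before mitosis, had 8.84 and 8.91 at day 9 and 7.31 and 7.61 at day 12. Both day 12 values lay below all day 6 and day 9 KO arrays and below all WT arrays. Its change was -1.41 (SE 0.12, limma adjusted p = 5.74e-05), a 2.66-fold fall, and differed from the WT change of 0.08 (adjusted p = 0.00167). Plk1, a kinase that drives mitotic entry, had 8.60 and 8.68 at day 9 and 7.45 and 7.97 at day 12. The days did not overlap, and the change was -0.93 (SE 0.16, adjusted p = 0.00247). Birc5, the passenger protein survivin, fell 2.46-fold, Ccna2, the cyclin of S phase and early mitosis, 2.14-fold, and the spindle protein gene Nusap1 2.04-fold. The mitotic kinase genes Cdk1 (-0.90) and Aurkb (-0.96) fell as well. The 3 members that did not pass were Ccnb2 (-0.42, adjusted p = 0.112), Ect2 (-0.41, 0.121) and Cenpf (-0.37, 0.143). The KO change differed from the WT change for 18 of the 30. The list mean was 7.79 and 7.84 in KO at day 9, 6.87 and 7.23 at day 12, and 7.82 to 7.99 in WT over all days. Leaving out any 1 KO array of days 9 or 12 left 21 to 28 members that fell, and the sex covariate left 13, where 259 of all genes fell and the list's median was -0.88.

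The promoters of these cell cycle genes are shown because the members moved together. Many genes of late cell cycle share a CCAAT box and a TTTGAA or TTTAAA element near the start site. Repression of their transcription outside the cell cycle runs through the second of these elements. RefSeq promoter windows on build GRCm38.p6, from 250 bases before to 50 bases after the start, were available for 26 of the 30 members as 29 windows. CCAAT stood on either strand in 72.4% of the 29 windows, against 37.4% of all 32851 windows. TTTGAA or TTTAAA, on either strand, stood in 89.7% against 27.6%, and both motifs in 69% against 10.7%. For the DNA replication list (30 windows of 26 genes) the shares were 53.3%, 23.3% and 16.7%. The windows of Top2a (chr11:99024140-99024439, minus strand) and Plk1 (chr7:122159185-122159484, plus strand) are written 5′ to 3′ with both motifs, or their reverse complements, in capitals.
Top2a: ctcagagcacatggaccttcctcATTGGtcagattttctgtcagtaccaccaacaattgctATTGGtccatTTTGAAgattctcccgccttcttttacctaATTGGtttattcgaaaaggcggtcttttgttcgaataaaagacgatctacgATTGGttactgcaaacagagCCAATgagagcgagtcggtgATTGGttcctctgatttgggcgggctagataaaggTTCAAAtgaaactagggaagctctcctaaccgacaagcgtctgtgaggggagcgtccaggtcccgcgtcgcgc
Plk1: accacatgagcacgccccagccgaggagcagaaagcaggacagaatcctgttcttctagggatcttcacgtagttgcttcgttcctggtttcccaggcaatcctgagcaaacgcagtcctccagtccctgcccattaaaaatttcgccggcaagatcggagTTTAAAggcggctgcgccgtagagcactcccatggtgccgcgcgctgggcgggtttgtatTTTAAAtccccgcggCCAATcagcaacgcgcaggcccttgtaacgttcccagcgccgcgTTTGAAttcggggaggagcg
The Top2a window holds 6 CCAAT matches and 2 of the other element, and the Plk1 window 1 and 3. The window of Ccnb2, which did not pass, holds 3 and 2. These are matches of letters, not measured binding sites. The shares follow from which genes are on the list and do not use the array values. A link between these letters and the fall was not tested.

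Replication and histone genes fell in part. Of 32 measured DNA replication genes, 18 fell and 1 rose, with a median change of -0.42 in KO and 0.05 in WT; without KO day 9 replicate 1 only 9 fell, and with the sex covariate 4, at a median of -0.52. The KO change passed as more negative than WT for 10 of the 32. Mcm6 (-0.82), Mcm5 (-0.81) and Mcm4 (-0.72), subunits of the replicative helicase, and Fen1 (-0.81), which processes Okazaki fragments, fell 1.64-fold to 1.76-fold. Prim2, a primase subunit, had 7.18 and 7.07 at day 9 and 8.01 and 8.82 at day 12. It was the member that rose, 2.46-fold, to values above all WT arrays. Of 26 clustered histone genes, a list added after the data were seen, 16 fell (61.5%) and 1 rose (3.85%). The median was -0.56 in KO and 0.10 in WT. With the sex covariate 9 fell and none rose, at a median of -0.68. H2ac4, a core histone gene whose copies are close to one another in sequence, had 9.54 and 8.77 at day 9 and 7.11 and 7.01 at day 12. Its days did not overlap, and the 4.27-fold fall compares with 3.34-fold for H4c6, 2.92-fold for H4c3 and 2.78-fold for the linker histone H1f1. Probes for such close copies may share signal. Among 30 centriole and centrosome genes, 5 rose and 1 fell, shares of 16.7% and 3.33% near those of all genes; without KO day 9 replicate 1 the numbers were 2 and 0, and without KO day 12 replicate 1 they were 8 and 1. Stil, needed for the start of centriole duplication, rose from 6.66 and 6.77 to 7.75 and 8.32 (2.5-fold). Tubgcp3, of the microtubule-nucleating gamma-tubulin complex, rose 1.52-fold.

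Of 22 p53 targets, 6 rose (27.3%, against 14.1% of all genes) and 2 fell (9.09%, against 8.81%), with a median of 0.14 in KO and -0.03 in WT. Plk2, a p53-induced kinase, had 7.72 and 7.67 at day 9 and 9.39 and 9.75 at day 12. The day 12 values lay above all other arrays, a 3.67-fold rise (limma adjusted p = 3.18e-05) against a WT change of 0.17. Trp53inp1, a stress-induced regulator of p53, rose 2.63-fold, the translesion polymerase gene Polk 1.67-fold and the antiproliferative gene Btg2 1.63-fold. The change of Btg2 did not pass as different from WT (limma adjusted p = 0.0601). Ddit4l and Psrc1 were the 2 that fell, and 9 of the 22 had a change below 0. Between 5 and 8 members rose when any 1 KO array was left out, and 2 rose with the sex covariate, at a median of 0.32.

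The largest rises started from day 9 signals on either side of 5.99, the median of all deposited values. Folds are given only where both group means reached that median, because low signals compress differences. Fezf1, a zinc-finger repressor known from forebrain development, had 5.94 and 5.90 at day 9 and 10.89 and 11.65 at day 12. All 10 other arrays lay between 5.20 and 5.94, and the change was 5.35 (SE 0.19, limma adjusted p = 1.53e-07). Its WT change was -0.12. Cadps2, a gene for dense-core vesicle release looked up as a neighbour of Fezf1 after the values were seen, rose 1.99-fold, from 6.35 and 6.20 to 7.15 and 7.38. Akp3, an intestinal alkaline phosphatase of a family with close copies, had 6.84 and 7.80 at day 9 and 11.15 and 11.78 at day 12. Day 9 lay close to the WT values, 6.86 to 8.16, and day 12 far above them, a 17.7-fold rise (SE 0.41 in log2 units, adjusted p = 0.00013). Plscr4, of the phospholipid scramblase family, rose 16.1-fold, from 6.24 and 6.21 to 9.81 and 10.64, with a WT change of 0.18. Mucl3, a mucin-like gene, went from 4.94 and 5.08 to 8.23 and 8.79, a change of 3.50. In both genes every other array stayed near the day 9 level.

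Reg1, a secreted lectin of the Reg family, had 5.37 and 5.89 at day 9 and 9.18 and 8.90 at day 12. Its WT change was 1.29, against 3.41 in KO (difference 2.12, limma adjusted p = 0.0266). Frmd3, a membrane-linked FERM domain gene, went from 4.51 and 4.35, below all WT arrays, to 7.37 and 7.68, above all of them. Lpo, the antimicrobial lactoperoxidase, changed by 2.70, and Cldn8, a barrier-forming claudin, also by 2.70. Cybrd1, the brush border ferric reductase, had 7.72 and 8.35 at day 9 and 10.55 and 10.75 at day 12. Its values rose 6.14-fold and lay above WT on both days; WT changed by -0.15. Stard5, a sterol-binding protein gene, rose 5.94-fold, the cytoskeletal adaptor Sorbs2 6.29-fold and the sulfotransferase gene Sult6b2 8.13-fold. Vldlr, a lipoprotein receptor gene induced by cell stress, had 7.36 and 7.73, then 9.77 and 10.16 (5.33-fold). Ctse, an aspartic protease abundant in stomach, rose 5.51-fold from 6.26 and 6.74 to 8.61 and 9.33. Dsg3, a desmosomal cadherin of squamous epithelium, changed by 2.19, from 4.73 and 4.72 to 7.30 and 6.52. Ctse and Dsg3 were the only 2 of 31 gastric and squamous genes that rose (6.45%), while 8 fell (25.8%). Fewer fell without KO day 12 replicate 2, where the list's median was -0.06 against -0.11 with all arrays. With the sex covariate 3 rose and none fell, at a median of -0.04.

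**Figure D3:**
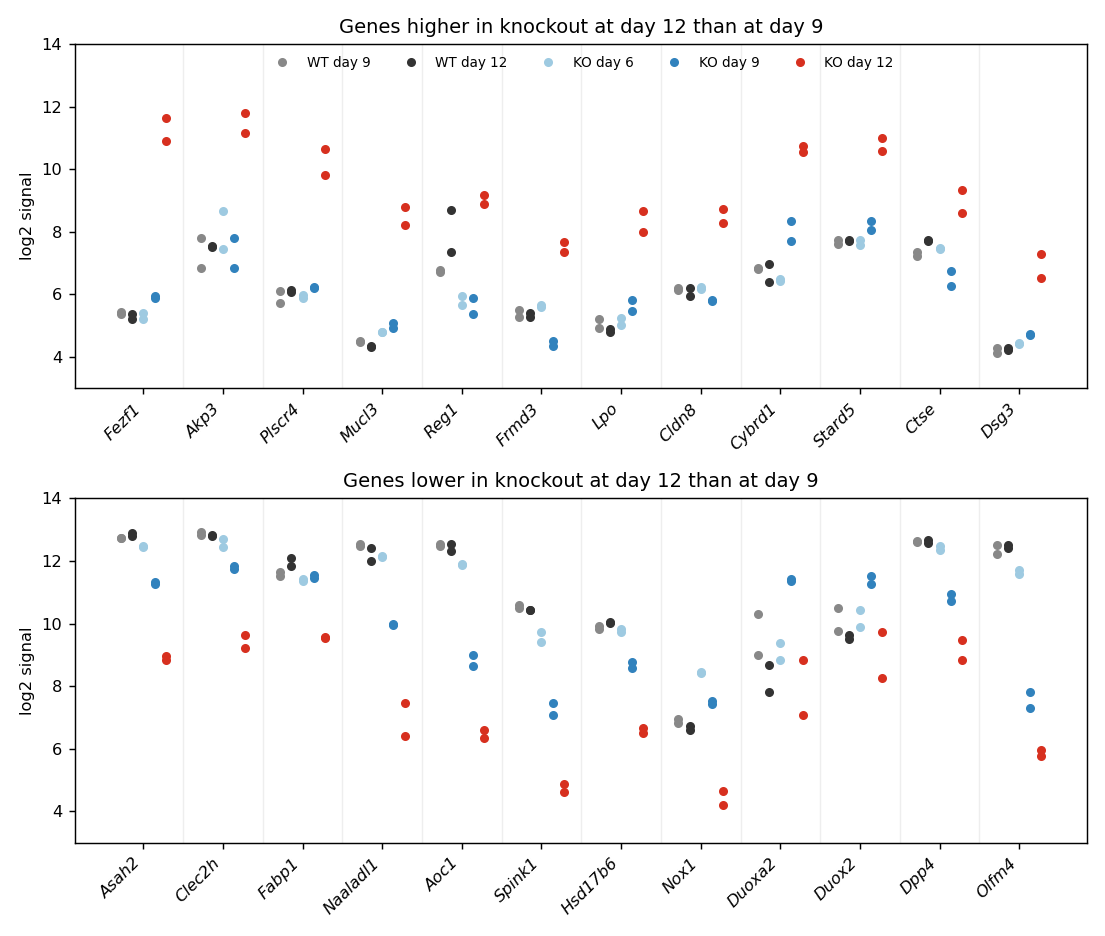
Log2 signal of 12 genes higher (top) and 12 genes lower (bottom) in KO at day 12 than at day 9, with 1 point per array for WT days 9 and 12 and KO days 6, 9 and 12. KO day 12 (red) lies apart from KO day 9 (blue) for each gene shown.

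The genes that fell most included Duox2 and Nox1, oxidases that make hydrogen peroxide and superoxide, and Duoxa2, the partner of Duox2. Duox2, the dual oxidase of the apical epithelial surface, had 11.25 and 11.52 at day 9 and 9.72 and 8.25 at day 12. Duoxa2, which Duox2 needs to leave the endoplasmic reticulum, had 11.35 and 11.41 at day 9 and 8.85 and 7.07 at day 12. For both genes the day 9 KO arrays were the highest of all arrays and the day 12 arrays were lower and spread apart. Duoxa2 fell 10.7-fold (change -3.42, SE 0.53, limma adjusted p = 0.00162) and Duox2 5.28-fold (-2.40, SE 0.38, adjusted p = 0.00182). In WT the changes were -1.40 and -0.54, and the KO changes did not pass as different from these (adjusted p = 0.144 and 0.0677). Duox2 did not pass with the sex covariate (-2.66, adjusted p = 0.0599). Nox1, the NADPH oxidase of gut epithelium, had 7.52 and 7.43 at day 9 and 4.67 and 4.21 at day 12. Its 2 day 12 values lay below all other arrays, with a change of -3.04 against -0.22 in WT (adjusted p of the difference = 2.51e-05).

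Duox2 and Duoxa2 lie head to head on chromosome 2, and their promoter windows are shown because the pair moved together. The RefSeq windows on GRCm38.p6 are chr2:122298178-122298477 (Duox2, minus strand) and chr2:122298650-122298949 (Duoxa2, plus strand), with 172 bases between them. TATAAA, the core of a TATA box, is in capitals.
Duox2: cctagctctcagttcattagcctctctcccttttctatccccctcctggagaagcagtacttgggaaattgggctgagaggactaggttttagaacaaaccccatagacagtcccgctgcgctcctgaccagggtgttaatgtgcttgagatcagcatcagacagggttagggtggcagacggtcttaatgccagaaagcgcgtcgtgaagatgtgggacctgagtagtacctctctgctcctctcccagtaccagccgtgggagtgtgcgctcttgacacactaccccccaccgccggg
Duoxa2: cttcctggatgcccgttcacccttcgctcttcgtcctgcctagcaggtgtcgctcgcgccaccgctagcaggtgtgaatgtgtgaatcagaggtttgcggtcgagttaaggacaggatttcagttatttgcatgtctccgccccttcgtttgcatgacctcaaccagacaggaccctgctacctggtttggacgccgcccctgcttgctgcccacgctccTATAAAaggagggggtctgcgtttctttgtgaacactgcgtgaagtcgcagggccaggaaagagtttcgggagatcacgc
The Duoxa2 window holds TATAAA with its first base at -30 from the start, and the Duox2 window holds none. On either strand, 13.6% of all 32851 windows hold these letters.

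Several enterocyte and defence genes fell beside them. Naaladl1, a peptidase of the brush border, had 9.99 and 9.94 at day 9 and 6.40 and 7.47 at day 12. WT values were 12.01 to 12.54 at these days, so an already low gene fell a further 8.17-fold. Asah2, the neutral ceramidase that digests dietary sphingolipid, had 11.25 and 11.33, then 8.83 and 8.98. Its 5.23-fold fall had the smallest error among the largest falls (SE 0.09 in log2 units, limma adjusted p = 1.61e-07), against a WT change of 0.11. Aoc1, the diamine oxidase that breaks down histamine, fell 5.06-fold from 8.98 and 8.64 to 6.33 and 6.62, and Clec2h, an epithelial ligand of lymphocyte receptors, fell 5.14-fold. Spink1, a trypsin inhibitor, had 7.08 and 7.47, then 4.88 and 4.61, where WT at these days was at 10.42 to 10.60. Tifa, an adaptor in sensing of bacterial sugar, fell 6.05-fold, and the epithelial kinase gene Ptk6 (-2.31), the protease gene Prss30 (-2.34) and the hormone gene Nts (neurotensin, -2.19) fell too. Hsd17b6, a steroid dehydrogenase, fell 4.26-fold, with a change that differed from WT by -2.26. With the sex covariate, Tifa (-2.09, adjusted p = 0.163) and Ptk6 (-2.07, adjusted p = 0.0879) did not pass.

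Genes of absorption and digestion split in direction. Of 26 measured brush border genes, 7 fell (26.9%) and 1 rose (3.85%), with a median of -0.22 in KO and -0.05 in WT. The sex covariate left 2 that fell and none that rose, at a median of -0.14. Dpp4, a dipeptidase, had 10.73 and 10.93 at day 9 and 8.82 and 9.46 at day 12. WT stayed at 12.58 to 12.66, so both KO days lay below WT and day 12 lower still, a 3.22-fold fall. Alpi, the major intestinal alkaline phosphatase, was the member that rose, from 12.05 and 12.28 to 12.82 and 13.00, above WT. Leaving out KO day 12 replicate 1 gave 6 and 5. The 22 lipid absorption genes held 8 that fell (36.4%) and 5 that rose (22.7%), with a median of -0.30 in KO and 0.04 in WT. With the sex covariate 3 fell and 2 rose, at a median of -0.24. Fabp1, which carries fatty acids in enterocytes, had 11.54 and 11.47 at day 9 and 9.54 and 9.56 at day 12. It was close to the WT level at day 9 and 3.87-fold lower at day 12 (SE 0.10 in log2 units, limma adjusted p = 1.66e-06), while WT changed by 0.37. Its relative Fabp2 fell 1.61-fold, as did the re-esterification gene Mogat2; Dgat1 fell 1.62-fold and the fatty acid transporter Slc27a4 1.76-fold. Abcg8 and Abcg5, the paired exporters of sterols, rose 2.24-fold and 2.06-fold to 11.10 and 11.43 and to 11.31 and 11.57. In this list 3 members rose without KO day 12 replicate 2 or KO day 9 replicate 2.

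Lists of xenobiotic, fatty acid oxidation and transporter genes held more rises than falls, as did all genes tested. Of 28 genes of xenobiotic metabolism, 14 rose and 2 fell, against 14.1% and 8.81% of all genes, with a median of 0.72 in KO and 0.17 in WT. Ugt2a3, a glucuronosyltransferase of enterocytes, had 5.05 and 4.73 at day 9 and 7.00 and 8.27 at day 12. Both values stayed below the WT arrays, which were at 10.49 to 11.01, and below the KO arrays of day 6, at 9.72 and 9.35. Cyp3a11, a major drug-oxidising P450, rose 4.57-fold from 9.27 and 8.99 to 10.81 and 11.84, next to WT at 10.96 to 11.89. Adh1, an alcohol and retinol dehydrogenase, rose 5.17-fold (WT change 0.73) and Cyp2c55 4.56-fold. Cyp4f14 (-1.39) and the carboxylesterase gene Ces2e (-1.24) fell. Of the 28, 9 rose without KO day 12 replicate 2 or KO day 9 replicate 1, and 5 with the sex covariate, at a median of 0.74. The KO change passed as more positive than WT for 6 and as more negative for 2. Among 19 genes of fatty acid oxidation, Acaa2 (1.95-fold), Ehhadh (1.62-fold) and Eci2 (1.53-fold), enzymes of beta-oxidation, rose and the related Eci1 fell 1.35-fold. The changes of Acaa2, Eci2 and Eci1 did not pass as different from WT (limma adjusted p = 0.161, 0.0744 and 0.129). Of the 19, 7 rose (36.8%) and 2 fell (10.5%). That count of rises was 3 without KO day 12 replicate 2 and 4 without either KO day 9 array. The KO change passed as more positive than WT for 2 of the 19. With the sex covariate 1 of them rose, at a median of 0.24, against 0.21 without it. Of 29 nutrient, ion and vitamin transporters, 7 rose (24.1%) and 5 fell (17.2%), both shares above those of all genes. The proline carrier Slc6a20a rose 2.96-fold, from 8.31 and 8.41 to 9.58 and 10.27, and the anion exchanger Slc26a6 fell 2.75-fold. Without KO day 9 replicate 1, 3 rose and 3 fell; without KO day 12 replicate 2, 4 rose.

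Of 9 genes of bile acid handling, 4 fell (44.4%) and 1 rose (11.1%), with a median of -0.38 in KO and -0.14 in WT. With the sex covariate 4 fell and none rose, at a median of -0.52. Slc10a2, the bile acid uptake carrier already described as high in KO, fell 2.36-fold, Slc51b, a subunit of the exporter, fell 2.12-fold from 10.61 and 10.46 to 9.50 and 9.41, and Fgf15, the hormone through which the gut limits bile acid synthesis, changed by -1.06 from 6.48 and 6.34 to 5.51 and 5.19. Slc10a2 changed by -0.79 in WT, and its KO change did not pass as different (adjusted p = 0.303). Of 20 cholesterol synthesis genes, 6 rose (30%, against 14.1% of all genes) and 1 fell (5%, against 8.81%), with a median of 0.27 in KO and -0.23 in WT. The KO change passed as more positive than WT for 4 of the 20. With the sex covariate none rose and 1 fell, at a median of 0.03. Lss, the synthase of lanosterol, rose from 7.79 and 7.49 to 8.57 and 9.49 (2.62-fold) and Hsd17b7 rose 2.08-fold. The number that rose was 10 without KO day 12 replicate 1, and 2 without KO day 12 replicate 2 or KO day 9 replicate 1.

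The hypoxia and glycolysis programme, above WT at day 9, stood lower at day 12. Of 24 genes, 15 fell (62.5%) and 2 rose (8.33%), with a median of -0.40 in KO and 0.00 in WT. The list mean was 9.70 and 9.77 in KO at day 9, 9.37 and 9.31 at day 12, 8.97 and 9.02 in KO at day 6, and 8.91 to 9.07 in WT. Hk2, which commits glucose to glycolysis, had 10.53 and 10.84 at day 9 and 9.39 and 8.98 at day 12. The 2.84-fold fall (limma adjusted p = 0.000507) left both values at or above those of WT at these days, 8.33 to 8.95. The mitophagy gene Bnip3 fell 1.89-fold, the lactate exporter Slc16a3 1.87-fold, the disulfide oxidase gene Ero1a 1.6-fold and lactate dehydrogenase Ldha 1.33-fold. Ndrg1, also induced by low oxygen, went the other way, from 9.40 and 9.27 to 11.06 and 11.21 (3.47-fold). It lay within the WT range at day 9 and above it at day 12. The number that fell was 11 to 14 without any 1 KO array and 3 with the sex covariate, at a median of -0.32. The KO change passed as more negative than WT for 10 of the 24 and as more positive for 1.

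Crypt base markers split: of 18, 4 fell (22.2%) and 5 rose (27.8%), and the KO change passed as different from WT for 1. The sex covariate left 2 that fell and none that rose, at a median of 0.04. Olfm4, a secreted marker of crypt stem cells, had 7.82 and 7.30 at day 9 and 5.95 and 5.77 at day 12. WT at these days stayed at 12.23 to 12.51, so the fall of 1.70 on the log2 scale (SE 0.16, limma adjusted p = 0.0001) came on top of a level far below WT. Cdca7, a chromatin factor of proliferating crypt cells, fell 1.55-fold. Lgr5, the Wnt co-receptor that marks these stem cells, had 5.85 and 6.16, then 5.31 and 5.77 (-0.46, adjusted p = 0.0566) and did not pass. Of the 5 that rose, none rose without KO day 9 replicate 1, where 2 fell, and 2 rose without either KO day 12 array. Of 21 fetal-like and YAP target genes, 7 rose (33.3%) and 2 fell (9.52%), with a median of 0.39 in KO and 0.07 in WT. The share that fell was near the 8.81% of all genes. Anxa10, an annexin at 4.23 to 4.35 in these WT arrays, had 9.85 and 10.29 at day 9 and 11.95 and 11.62 at day 12. It rose a further 3.27-fold, and Anxa1, a fetal-epithelium annexin, rose 2.15-fold. The keratin gene Krt23 rose 1.98-fold and Il1rn, the decoy ligand of the interleukin 1 receptor, 1.96-fold. Il33, the alarmin cytokine, had 10.07 and 10.81 at day 9 and 8.12 and 8.62 at day 12. It fell 4.19-fold to a level below the WT arrays of those days, and Anxa2 fell 1.48-fold. With any 1 KO array left out, 6 to 8 members rose, and 3 rose with the sex covariate, at a median of 0.43. Of 15 intestinal identity factors, 1 fell (6.67%) and 2 rose (13.3%), no more than the shares of all genes; the one that fell was Elf3 (-0.87), an epithelial factor of enterocyte differentiation.

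Secretory lineages moved in both directions. Of 23 Paneth and Reg antimicrobial genes, 11 fell (47.8%) and 5 rose (21.7%), with a median of -0.40 in KO and -0.18 in WT. The oxidase genes above were among the falls and Reg1 among the rises. Reg2, a close relative of Reg1, went from 3.57 and 3.83 to 6.52 and 5.02, a change of 2.07 that was 1.32 without KO day 12 replicate 1. Lcn2, which withholds iron from bacteria, rose from 7.10 and 7.73 to 8.33 and 8.48 (1.98-fold), and the endotoxin-binding gene Lbp rose 1.8-fold. The number that fell was 7 without KO day 12 replicate 2, 6 without KO day 9 replicate 2 and 1 with the sex covariate, at a median of -0.25. Of 23 enteroendocrine genes, 8 fell (34.8%) and 3 rose (13%, near the 14.1% of all genes). The sex covariate left 5 that fell and 2 that rose, at a median of -0.18. Gip, the incretin of K cells, had 8.43 and 8.22 at day 9 and 7.19 and 6.99 at day 12. Both day 12 values lay below all other arrays (2.35-fold, limma adjusted p = 0.000223), and WT changed by 0.18. Somatostatin (Sst) fell 2.05-fold, and glucagon (Gcg) fell too. The processing enzyme Pcsk1 (1.95-fold), the serotonin enzyme Tph1 (1.51-fold) and the fate factor Neurod1 (0.82) rose. The number that fell was 5 without KO day 12 replicate 2 or KO day 9 replicate 1. Of 19 goblet cell genes, 5 rose (26.3%) and 3 fell (15.8%), and with the sex covariate none passed, at a median of 0.22. Atoh1, the master factor of secretory fate, rose from 8.83 and 8.85 to 9.80 and 9.45 (1.72-fold), the mucin-glycosylating gene Gcnt3 1.59-fold and Bcas1 2.1-fold. Muc4, Ccl6 and Clca1 were the 3 that fell. Without KO day 9 replicate 1, 3 goblet genes rose and 2 fell, and 1 fell without KO day 12 replicate 2 or KO day 9 replicate 2. Of 19 tuft cell markers, 1 rose (5.26%) and 4 fell (21.1%), with a median of -0.17 in KO and -0.02 in WT. The calls of the falls did not hold without KO day 9 replicate 1. Avil, an actin-bundling marker, was the member that rose, from 6.47 and 6.57 to 7.62 and 7.19. Trpm5, Rgs13 and Il17rb were among the 4 that fell.

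Lists of antigen presentation, interferon and lymphocyte genes held falls and no rises in the main fit. Of 17 MHC presentation genes, 11 fell (64.7%) and none rose, with a median of -0.55 in KO and -0.37 in WT. The KO change passed as different from WT for 1. Psmb10, an immunoproteasome subunit, had 9.00 and 8.84 at day 9 and 7.73 and 7.27 at day 12. Both day 12 values lay below all other arrays, and the gene fell 2.68-fold. Psmb8 and Psmb9 fell 2.43-fold and 2.13-fold, with WT changes of -0.65 and -0.63. The number that fell was 6 without KO day 12 replicate 2, 4 without KO day 9 replicate 1 and 2 with the sex covariate, at a median of -0.91. Of 26 interferon-stimulated genes, 11 fell (42.3%) and none rose (median -0.43 in KO, -0.25 in WT). The KO change passed as different from WT for 1. With the sex covariate 2 fell, at a median of -0.49, and with the muscle covariate 5 fell and 1 rose. Oasl2, an antiviral gene, fell 2.68-fold from 8.46 and 8.62 to 7.27 and 6.96 and did not pass as different from its WT change of -0.25 (adjusted p = 0.0747). Without KO day 12 replicate 2, KO day 9 replicate 1 or KO day 9 replicate 2 the number was 4, 7 or 5. Of 28 T cell and intraepithelial lymphocyte genes, 12 fell (42.9%) and none rose, with a median of -0.34 in KO and -0.05 in WT. The KO change passed as different from WT for 2. Gzma, a killer cell protease, fell 3.02-fold from 7.45 and 7.84 to 6.54 and 5.57, against a WT change of -0.48 (adjusted p of the difference = 0.143), and the T cell gene Cd7 fell 1.97-fold. The list mean was 6.10 and 6.31 in KO at day 9, 5.89 and 5.81 at day 12, and 6.60 to 6.87 in WT at these days. With any 1 KO array left out the median was -0.40 to -0.26. Fewer T cell genes fell without KO day 12 replicate 2 or either KO day 9 array. Rises appeared without KO day 12 replicate 1 or KO day 9 replicate 2. With the muscle covariate 2 rose and 6 fell, and with the replicate block 1 rose and 11 fell. The sex covariate left 3 that fell and none that rose, at a median of -0.54. Of 19 B cell and plasma cell genes, 3 fell (15.8%, against 8.81% of all genes) and 16 did not pass. Among the falls was Irf4 (-0.87), a factor of plasma cell fate. The list's median was -0.67 in KO and 0.36 in WT. With any 1 KO array left out the KO median was -0.82 to -0.29, and the number that fell varied. With the sex covariate 2 fell, at a median of -1.51.

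Of 34 chemokine ligands, 12 fell (35.3%, against 8.81% of all genes) and 2 rose (5.88%, against 14.1%), with a median of -0.29 in KO and -0.12 in WT. The KO change passed as more negative than WT for 5 and as more positive for 2. With the sex covariate 1 fell and none rose, at a median of -0.42. With any 1 KO array left out the median was -0.37 to -0.19. Cxcl9, an interferon-induced attractant of T cells, had 7.11 and 8.09 at day 9 and 5.82 and 5.08 at day 12. The change of -2.15 (SE 0.31, limma adjusted p = 0.00113) did not pass as different from the WT change of -0.77 (adjusted p = 0.0928). Ccl22 (-1.24), an attractant of regulatory T cells, and Ccl25 (-0.72), which draws lymphocytes to the small intestine, fell. The cytokine feedback inhibitor Socs3 fell 1.85-fold. Of 25 macrophage and monocyte genes, 5 rose (20%) and 4 fell (16%), against 14.1% and 8.81% of all genes. The median was -0.07 in KO and -0.10 in WT, and 13 of the 25 had a change below 0. Arg1, Aif1 and Trem2 were among the 4 that fell. The sex covariate left 2 that rose and none that fell, at a median of -0.02. The scavenger receptor gene Cd163, picked from this list for its change, had 5.98 and 5.66 at day 9 and 7.93 and 7.64 at day 12. Both day 12 values lay above all other arrays (1.96, SE 0.13, adjusted p = 7.63e-06; WT change 0.18), and the mannose receptor Mrc1 rose 2.04-fold. Lyve1, shared by lymphatic vessels and some macrophages, rose 2.11-fold. Without KO day 12 replicate 2, 3 macrophage genes rose and 1 fell, and without KO day 9 replicate 1 the numbers were 2 and 1. Of 18 neutrophil genes, 3 rose and 3 fell. Each is a share of 16.7%, against 14.1% and 8.81% of all genes. Retnlg rose from 6.84 and 7.68 to 9.07 and 9.02, and Il1r2, a decoy receptor, from 5.96 and 5.94 to 6.81 and 6.92. S100a9, the abundant calprotectin subunit, changed by -0.68 from 5.98 and 6.15 to 5.34 and 5.43.

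**Figure D4:**
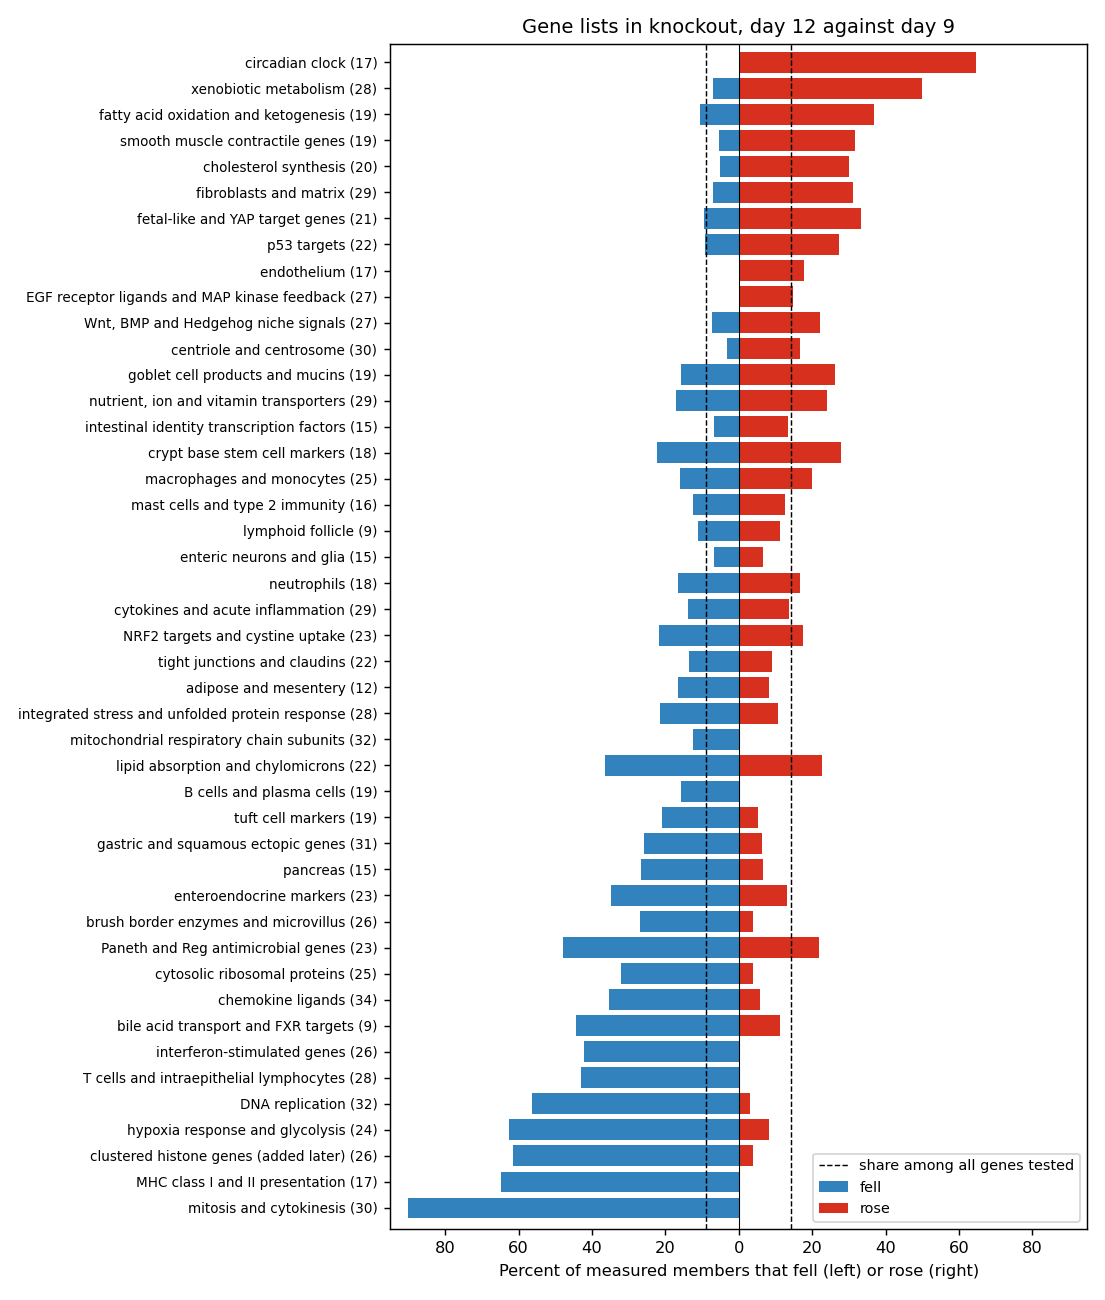
Percent of the measured members of each gene list that fell (left, blue) or rose (right, red) in KO from day 9 to day 12, with the number measured in brackets and dashed lines at the shares of all genes tested (14.1 and 8.81). Mitosis genes have the highest share of falls and circadian clock genes the highest share of rises.

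Clock genes rose together. Of 17 measured, 11 rose and none fell, against 14.1% of all genes that rose, with a median of 0.65 in KO and 0.16 in WT. Per1, a repressor of the clock loop that also responds to stress hormones, had 7.79 and 7.84 at day 9 and 8.91 and 9.42 at day 12. The day 12 values lay above all other arrays, a 2.55-fold rise (limma adjusted p = 0.000429) against a WT change of 0.12. The repressors Cry2 (2.35-fold), Ciart (1.22 on the log2 scale) and Per3 (0.75) rose, and the KO change passed as different from WT for 3 of the 17. The list mean was 6.93 and 7.06 in KO at day 9, 7.47 and 7.67 at day 12, and 7.35 to 7.65 in WT. The number that rose was 6 without KO day 12 replicate 2, 4 without KO day 9 replicate 1 and 1 with the sex covariate, at a median of 0.50. The hour of collection is not given in the sources used here, and its part in the result was not tested.

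**Figure D5:**
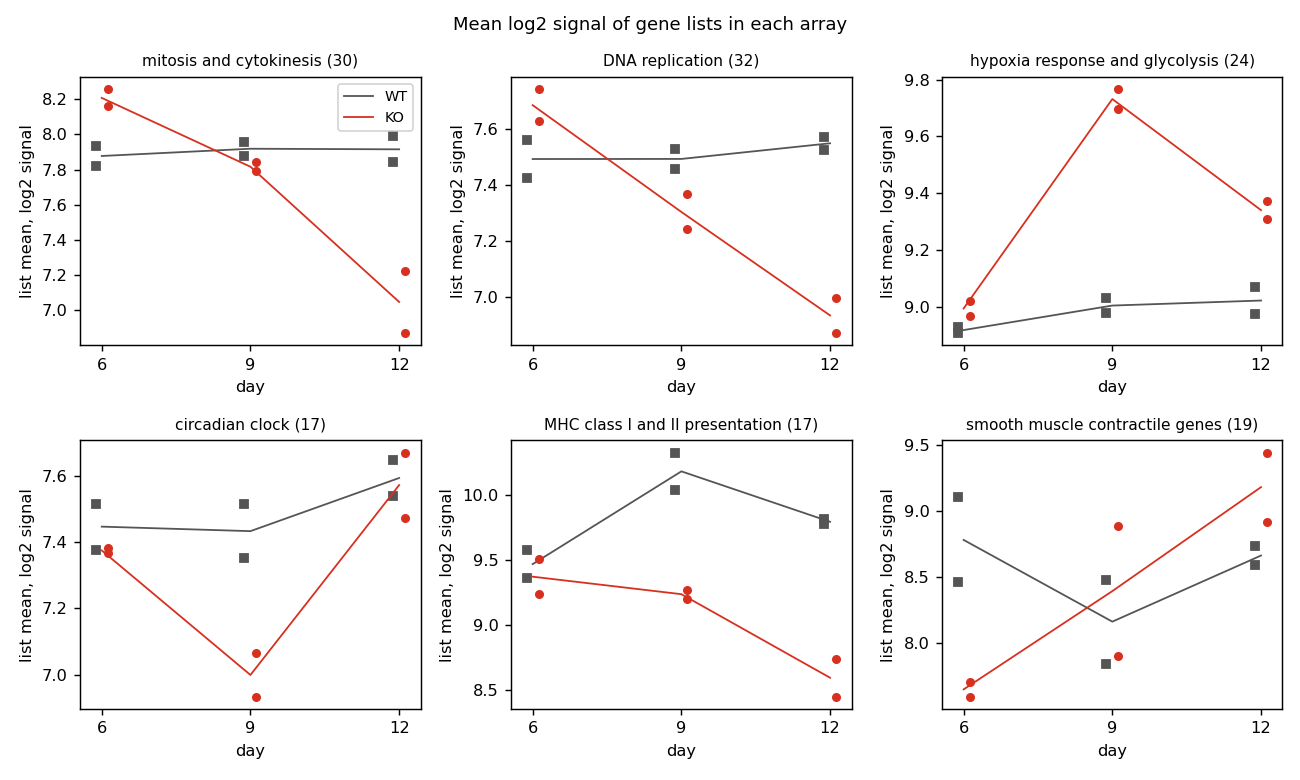
Mean log2 signal of 6 gene lists in each array by day, squares for WT and circles for KO, with lines through the group means. The mitosis mean falls in KO to 6.87 and 7.23 at day 12, and the smooth muscle mean differs between the 2 KO mice of day 9 (8.89 and 7.90).

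Stromal genes were read beside that spread in muscle. Of 19 smooth muscle genes, 6 rose (31.6%) and 1 fell (5.26%), with a median of 1.03 in KO and 0.49 in WT. The KO change passed as more positive than WT for none of the 19 and as more negative for 1. The median in KO was 0.27 without KO day 9 replicate 2 and 0.58 without KO day 12 replicate 1. The 2 KO mice of day 9 differed: Actg2, the enteric smooth muscle actin, had 9.62 and 8.03 at day 9 and 10.52 and 9.79 at day 12, and Myh11, smooth muscle myosin, had 10.60 and 9.49, then 11.49 and 10.87. Neither change (1.33 and 1.13, limma adjusted p = 0.0651 and 0.059) passed. Mustn1, a small muscle gene, rose 2.05-fold. Without KO day 9 replicate 1, 12 members rose, and without KO day 9 replicate 2, 1 rose. Of 29 fibroblast and matrix genes, 9 rose (31%) and 2 fell (6.9%), against 14.1% and 8.81% of all genes. With the sex covariate 6 rose and none fell, at a median of 0.50. Fn1 (fibronectin) rose 2.16-fold from 9.97 and 9.99 to 11.34 and 10.84, with a WT change of 0.32, Postn (periostin) 2.38-fold, and the collagen cross-linking enzyme Lox from 5.98 and 5.95 to 7.03 and 7.72. The matrix protease Mmp10 fell 1.78-fold. The KO change passed as more negative than WT for 1 of the 29 and as more positive for none. Leaving out KO day 12 replicate 1, 6 of these rose and 7 fell; without either KO day 9 array 5 rose, and with the muscle covariate 5 rose and 5 fell. Of 27 Wnt, BMP and Hedgehog genes, 6 rose (22.2%) and 2 fell (7.41%), against 14.1% and 8.81% of all genes. The sex covariate left 3 that rose and none that fell, at a median of 0.18. Bmp8b, a BMP ligand, rose 2.54-fold from 8.91 and 9.17 to 10.24 and 10.52, above all WT arrays, and the Hedgehog receptor Ptch1 rose 1.87-fold, from below the WT range into it. Of the 27, 2 rose when KO day 12 replicate 2 was left out and 3 when KO day 9 replicate 1 was.

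The 8 genes with the smallest p for a difference between the KO and WT changes were Fezf1, Asah2, Frmd3, Mucl3, Fabp1, Nox1, Cldn8 and Hsd17b6. Their differences ran from -2.82 for Nox1 to 5.47 for Fezf1, and the adjusted p from 5.45e-06 for Fezf1 to 2.83e-05 for Hsd17b6 (limma). Each kept its direction and its call when any 1 array of days 9 or 12 was left out and with sex or the muscle mean as a covariate. The 5 genes with the smallest p in WT did not pass there: Saa1 (-1.35), Slc34a2 (-1.48) and Ppp1r14d (-0.90) each had an adjusted p of 0.0972, and Fkbp5 (0.96) and Pim1 (-0.60) one of 0.267. In KO, the phosphatase inhibitor gene Ppp1r14d changed by -0.87 and passed. Fkbp5, a glucocorticoid-induced chaperone, changed by 0.67 in KO and passed (adjusted p = 0.0133), but not without KO day 12 replicate 2 (0.54) or KO day 9 replicate 2 (0.59).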

How the data were processed

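Per the labels, RNA from whole tissue was labelled with biotin and measured on Affymetrix Mouse Gene 1.0 ST arrays, 1 value per probe set. The authors deposited log2 values for 35556 probe sets on 12 arrays, used here as deposited. Of tools, the submitters' processing notes list limma and R 3.5; how the values were normalised is not given in the sources used here. Only probe sets with exactly 1 gene symbol (21789) were kept, and for the 999 genes with several the one with the highest mean over all arrays was used, leaving 19938 genes. Precision is limited by the number of arrays, with a median SE of 0.11 for the KO change and 0.16 for its difference from WT.

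limma 3.58.1 in R 4.3.3 fitted 1 mean for each of the 6 groups and moderated the variances by empirical Bayes (degrees of freedom: 6 residual, 5.23 prior). Tests were two-sided, adjusted by Benjamini-Hochberg over 19938 genes and called under 0.05. With 2 mice against 2, an exact permutation test cannot go below p = 0.333. The fit was tested on simulated data with known changes.

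The comparison, the 46 gene lists (1007 of 1121 entries measured) and a further list of histones were chosen with earlier results of these data known. By rule, the text names the targeted gene, the 14 largest rises and falls, the genes with the smallest p for the genotype difference (8) and for WT (5), and per list up to 4 called members per direction. Of these list members it gives those whose call held with any 1 array left out, plus markers (Vil1, Cdx2, Lgr5, Actg2, Myh11, Plk1, Cdk1, Aurkb, Ldha, Per3, Ccl25, Krt8, Gpx2, Taldo1), the mitosis genes that missed the threshold, Kdm5d and Cadps2, all picked with their values in view. Trpm5, Rgs13, Il17rb, Muc4, Ccl6, Clca1, Arg1, Aif1, Trem2, Ddit4l and Psrc1 were added as called members that fell. Predicted genes, small RNAs and odorant receptors were skipped. Alternatives covered scaling, a dim-signal filter, probe set averaging, the arrays fitted, moderation, weights, a replicate block, covariates and leaving out arrays.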

Additional observations from a re-analysis of the deposited data

Results flagged for a closer look

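The change from day 9 to day 12 differed between KO and WT in 1212 genes, by limma's test of the difference itself. The 8 genes with the smallest p were Fezf1 (KO change minus WT change 5.47 in log2 units), Mucl3 (3.65), Frmd3 (3.15), Cldn8 (2.79), Nox1 (-2.82), Asah2 (-2.50), Fabp1 (-2.33) and Hsd17b6 (-2.26). With 2 arrays per group, single arrays were not tested as outliers.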

How the results depend on the processing

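The number of called KO genes was 4573. It was 2374 with array quality weights, 2741 when the 6 KO arrays were fitted alone and 807 with the sex covariate, which was chosen after seeing the data; leaving out 1 array at a time gave 2028 to 5529. The count in WT was 0, and 4 with array quality weights or with days 9 and 12 only, and 0 to 4 with 1 array left out. The count for the difference between genotypes was 1212, 559 with days 9 and 12 only, and 274 to 2433 with 1 array left out. The lowest came without WT day 9 replicate 2 and the highest without KO day 12 replicate 1. Centring, quantile normalisation, the dim-signal filter, averaged probe sets, the muscle covariate and trended robust moderation kept each of the 3 counts within 1.5 times. Replicate numbers in the labels do not state a pairing. Same-numbered KO arrays of days 9 and 12 deviated together (r = 0.35 across genes), and other pairs of groups ranged from -0.15 to 0.18; with the replicate number as a block the counts were 4564, 0 and 1255. Of 155 genes followed under all settings, 60 lost their call with the sex covariate and 2 reversed, the Y-linked Uty (1.27) and Kdm5d (0.67). Uty did not pass without any 1 of the 8 arrays, and Kdm5d without any 1 of the 4 KO arrays. At most 3 genes lost their call under the other settings that did not leave out 1 array. List members among the 155 were picked for calls that held with any 1 array left out, so their calls cannot test that. Over all genes, array quality weights kept 2374 of the 4573 calls. Of 47 list medians, 20 moved by at least the spread within groups without KO day 12 replicate 2. The number was 14 without KO day 9 replicate 2 and 19 with the muscle covariate. Array quality weights gave the KO day 12 arrays the lowest weight, 0.54. Signals below 5.99 give changes that may be compressed.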

Other observations

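Several further gene groups moved little, or their number of calls depended on single arrays, as did the number over all genes. Of 25 cytosolic ribosomal protein genes, 8 fell (32%) and 1 rose (4%), with a median of -0.26 in KO and -0.01 in WT. The number that fell depended on the KO array left out, while the median stayed at -0.37 to -0.14. With the sex covariate none passed, at a median of -0.34. Of 32 respiratory chain genes, 4 fell (12.5%) and none rose, with a median of -0.21 in KO and -0.04 in WT. Here too the number that fell depended on the KO array left out, with medians of -0.28 to -0.14. The sex covariate left none that fell, at a median of -0.16. Of 23 NRF2 targets, 4 rose (17.4%) and 5 fell (21.7%), against 14.1% and 8.81% of all genes. With the sex covariate none passed, at a median of -0.04. The antioxidant gene Nqo1 rose 1.81-fold and the growth inhibitor gene Osgin1 1.66-fold, and the glutathione peroxidase gene Gpx2 (-1.08) and the pentose phosphate gene Taldo1 (-0.55) fell. Only 1 fell when KO day 12 replicate 2 or KO day 9 replicate 1 was left out, and 7 when KO day 12 replicate 1 was. Of 28 genes of the integrated stress and unfolded protein responses, 3 rose (10.7%) and 6 fell (21.4%), against 14.1% and 8.81% of all genes. The sex covariate left 1 that rose and 2 that fell, at a median of -0.27. The leucine sensor gene Sesn2 rose 1.53-fold and the endoplasmic reticulum gene Creld2 fell 1.69-fold. Of 27 genes of EGF receptor ligands and MAP kinase feedback, 4 rose, a share of 14.8% next to 14.1% of all genes, and 1 or 2 rose without any 1 KO array. Among them Btc (betacellulin) rose 1.66-fold from 9.97 and 10.01 to 10.74 and 10.70, far above WT at 6.73 to 7.07. Of 22 junction genes, 2 rose (9.09%) and 3 fell (13.6%), shares not far from the 14.1% and 8.81% of all genes. The pore-forming claudin gene Cldn2 rose 1.92-fold beside Cldn8. The keratin gene Krt17, of squamous epithelium, was at 5.64 and 5.91 at day 9 and 5.29 and 5.27 at day 12, and it fell at signals close to those of WT.

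Markers of neighbouring tissues were low. The mean log2 signal of 15 pancreatic genes was 5.46 to 5.73 over the 12 arrays and that of 12 adipose genes 5.92 to 6.44. Of 15 genes of enteric neurons and glia, 1 rose and 1 fell (6.67% each). Of 17 endothelial genes 3 rose (17.6%, near the 14.1% of all genes) and none fell.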
